A study of Mus musculus with 13 samples.

Results

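Gene expression was compared between the mouse RNA sources NT1p14 and TBVp13 on 5 two-colour arrays, which were all the arrays, out of 13 in the series, whose channels held these sources. The arrays were chosen by the source names in the labels alone. The series title places a homozygous Sall4 mutation beside NT1 and sets NT1 against TBV. The source names were taken to give passage 14 for NT1 and passage 13 for TBV. Arrays 1, 2 and 4 carried NT1p14 in Cy5 and TBVp13 in Cy3, and arrays 3 and 5 carried the reverse. The labels give total RNA as the material, and no cell type, sex, treatment, culture condition or number of clones. The 5 arrays repeat 1 pair of RNA sources, so they count as 1 replicate, and the differences below have no replicate check and carry no p-value.

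Sall4 encodes a zinc finger transcription factor that works beside Oct4, the product of Pou5f1, in pluripotent cells. Embryonic stem cells keep these factors on, divide fast, and are often grown on a layer of fibroblasts called feeder cells, which make collagens and contractile actin. Loss of pluripotency can bring up genes of the trophectoderm, of the endoderm or of later tissues. On a two-colour array each spot gives the ratio of the sources and not the level of either, so no marker level could be checked here.

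Values are log2 ratios of NT1p14 over TBVp13 after each array was centred on its median and arrays 3 and 5 were turned. The dye-balanced value is the mean of the means of both dye orientations, so that a dye effect cancels, and the SD is taken over the 5 arrays. Where array 3 or array 5 is left out below, the other gives the mean of their orientation alone and so weighs more. Cy5 was taken as the numerator, which is likely, since the titles name NT1 against TBV and the Cy5 source is channel 1, but is not stated. Under the other reading every sign below reverses. A probe or gene was called when it had the same sign, with no 0, on all 5 arrays and differed by at least 1.5-fold (0.58 on the log2 scale).

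The arrays differed in quality. They held 14314 to 17688 probes with a value, and the SD over probes was 0.19 on array 1, 0.44 on array 2, 0.59 on array 3, 0.76 on array 4 and 0.84 on array 5. Array 1 was thus nearly flat, and a sign on it often rests on a value close to 0. Across the 12660 probes measured on every array, turned arrays correlated at 0.05 to 0.46 in opposite orientations and at 0.10 to 0.44 in the same one. The lowest correlations all involved array 1 with another array. Whole numbers made up 14.8% (array 2) to 39.2% (array 5) of the deposited values, so decimals appear to be missing from part of the table. A value of 1 or 2 on such a probe is therefore coarse, and a 0 stands for a range of small ratios.

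Of the 12660 probes, 372 were called higher in NT1p14 (2.94%) and 114 were called lower (0.900%). The higher probes had a median of 0.79 and 84 of them reached 2-fold, whereas the lower probes had a median of -0.67 and 5 reached 2-fold. Probes above 0 on all 5 arrays whatever their size were fewer (869) than those below 0 (1206). By size alone, whatever the signs, 1162 probes reached 1.5-fold higher and 321 lower, so larger differences were more frequent on the higher side. At least 1 whole number was present in 352 of the higher and 97 of the lower probes. Among the 8205 probes with none there were 20 higher and 17 lower calls. In the named probes every reading of 1 or more in size was a whole number. Keeping only probes with none can therefore leave out large ratios by itself, so the 20 and 17 do not check the other calls. Leaving out 1 array moved the counts of 372 and 114. The rule then asks for fewer equal signs, which by itself can raise a count. Without array 1 there were 814 higher and 487 lower, without array 2 226 lower, without array 3 497 lower and without array 5 60 lower. Counted per gene, with the probes of a gene averaged, 200 of 6530 genes were higher (3.06%) and 47 were lower (0.720%).

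**Figure D1:**
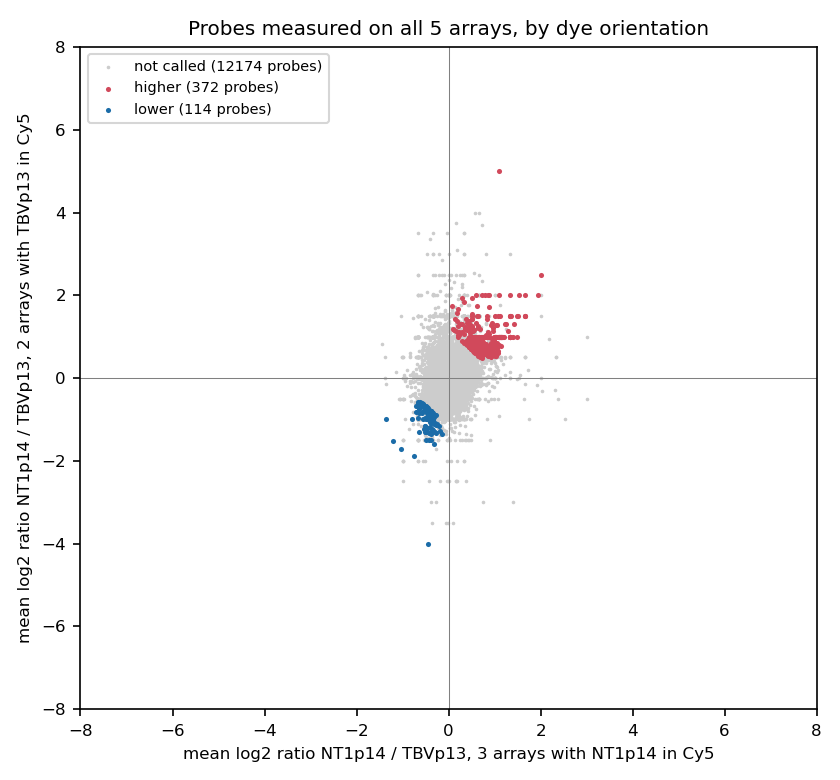
Each point is 1 of the 12660 probes, with its mean log2 ratio of NT1p14 over TBVp13 on the 3 arrays with NT1p14 in Cy5 (x axis) and on the 2 arrays with TBVp13 in Cy5 (y axis); 1 probe lies outside the range shown. The 372 probes called higher and the 114 called lower sit in the upper right and lower left, which the call rule fixes.

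The targeted gene came first. Sall4 stood at -0.03, 0.23, -0.18, 0.39 and 0.05 on arrays 1 to 5. These values lie on both sides of 0, and the dye-balanced ratio was 0.07 ± 0.22 (SD, 5 arrays). The position of this probe relative to the mutated part of the gene is unknown, and its ratio is therefore no check of the labels.

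Among genes of pluripotency, several defining markers of embryonic stem cells lay below 0 without reaching a call. Of 8 such markers 6 were measured, 5 of them below 0, with a median of -0.25, and 0 were called in either direction. Esrrb, an orphan nuclear receptor of the naive state, read -0.14, -0.29, -0.30, -0.16 and -0.31. It was below 0 on every array with little spread, and its dye-balanced value of -0.25 ± 0.08 is under 1.5-fold. Fgf4, the growth factor by which stem cells signal to themselves, read -0.44, -0.45, -0.76, -0.11 and -0.84, again below 0 throughout, with a value of -0.57 ± 0.29 just inside the 1.5-fold limit. Zfp42, also called Rex1 and a marker of undifferentiated cells, was at -1 on arrays 1, 2 and 3 and at 0 on arrays 4 and 5 (-0.58 ± 0.55). Pou5f1 was at 0 on 4 arrays and at -1 on array 3, so its -0.25 ± 0.45 rests on that array. Utf1, an undifferentiated-cell chromatin factor, lay on both sides of 0 (-0.06 ± 0.54), and Dppa5a, an RNA-binding protein of stem cells, was at 0 on all arrays but array 4. Over the whole list of 19 measured pluripotency genes 9 were above and 10 below 0, the median was -0.06 against 0.01 for all genes, and 1 gene was called higher (5.26% against 3.06% of all genes). The median was 0.06 without array 2, 0.07 without array 3 and -0.19 without array 5, so its direction rests on single arrays. The called gene was Jarid2, a partner of Polycomb repressive complexes, at 0.68 ± 0.63, which fell to 0.54 without array 4 and to 0.46 without array 5. Of its 2 probes 1 had a value on all 5 arrays, so the arrays may average different probes.

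Signalling genes included Lefty1, among the largest differences of the named probes. Lefty1, a secreted antagonist of Nodal, read 1, 2, 2, 2 and 1, and was thus higher in NT1p14 on every array (1.58 ± 0.55). Dusp6, a phosphatase that dampens FGF and ERK signalling, read 0.06, 0.56, 0.85, 0.91 and 2, so that array 1 was near 0 and array 5 stood highest (0.97 ± 0.71). These were the 2 genes called among 14 measured genes of LIF, Nodal, BMP and FGF signalling, whose median was 0.00 with 7 genes on either side of 0 (14.3% called, against 3.06% of all genes). None of the 14 was called lower.

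Genes of actin, contractility and matrix included several of the largest named differences. Of 23 measured genes of the actin cytoskeleton and adhesion 4 were called higher (17.4% against 3.06% of all genes) and 0 lower. Cnn3, an actin-binding calponin, had the largest value of the named higher probes: it read 0.80, 2, 2, 3 and 2 and was 1.97 ± 0.78. Myh9, the heavy chain of non-muscle myosin, read 0.51 on array 1 and 1 on each of the other arrays (0.92 ± 0.22). Itgb1, the beta subunit of many matrix receptors, was at 0.39, 0.97, 1.17, 0.92 and 0.56 as the mean of 5 probes (0.81 ± 0.32). All arrays of these genes were above 0 and array 1 was the lowest for each. Pfn1, which feeds actin monomers to growing filaments, was at 0.71 ± 0.74 and rested on arrays 4 and 5, at 1.5 each, against 0.08 to 0.19 on the others. It stood at 0.48 without array 4 and at 0.38 without array 5. The list as a whole was mixed, with 14 genes above and 9 below 0 and a median of 0.20. That median was 0.08 without array 4, 0.07 without array 5, and -0.14 when only probes with no whole number were kept. Genes with no such probe drop out, here and in the lists below, so the last value is not a second reading of the same genes. That choice of probes can also leave out large ratios by itself.

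The alpha-actin genes Acta2 and Actc1 and 2 of the 5 measured collagen genes of the fibroblast list were called higher, as were 3.06% of all genes. Acta2, smooth muscle alpha-actin, and Actc1, cardiac alpha-actin, gave the same readings on the arrays, 1, 1, 1, 2 and 1, and the same value of 1.17 ± 0.45. The alpha-actins are closely alike in sequence, so a probe of either may bind the other, and the pair may be a single measurement. All 5 readings of both are whole numbers, however, and coarse readings can coincide, as those of Lefty1 and Zfp524 do. In the source pair NT1p12 with TBVp12 Acta2 was at -0.68 and Actc1 at -0.49. In NT1 1 with TBV2 they were at -0.75 and -0.54. Col3a1, a fibrillar collagen, read 0.57 on array 1 and 1 on the other 4 (0.93 ± 0.19). Col1a1, the main collagen of connective tissue, read 1, 1.5, 1, 0.5 and 0.5 as the mean of 2 probes (0.88 ± 0.42). Serpinh1, the collagen chaperone Hsp47, read 0.54, 2, 2, 2 and 1 and reached 1.51 ± 0.69. Anxa2, a membrane-binding annexin, was at 0.01 on array 1 and from 0.72 to 1 on the rest (0.75 ± 0.40). For Col3a1 and Serpinh1 no array lay near 0, whereas the array 1 value of Anxa2 did. The 0.5 of Col1a1 on arrays 4 and 5 is a mean of 2 probes, so 1 of them may stand at 0 there. The other collagens were not called: Col1a2, the partner chain of Col1a1, was at 0.46 ± 0.39, Col5a2 at 0.42 ± 0.55 with 0 on arrays 1, 4 and 5, and Col6a1 at -0.07 ± 0.24.

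Of 22 measured fibroblast and feeder genes 4 were called higher (Acta2, Col3a1, Col1a1 and Anxa2; 18.2% against 3.06% of all genes) and 0 lower, 15 were above and 7 below 0, and the median was 0.30. Its median by array was 0.02, 0.56, 0.40, 0.34 and 0.00, so that arrays 1 and 5 showed no shift of the list. The list median was 0.19 without array 3 and 0.03 when only probes with no whole number were kept. The defining fibroblast markers did not all go in the same direction. Of 8 there were 6 measured, 4 above 0 and 2 below, from -0.45 to 1.17. Dcn, the matrix proteoglycan decorin, was below 0 on all 5 arrays (-0.45 ± 0.42), and Thy1, a surface marker of fibroblasts, was at -0.27 ± 0.55. Whether feeder cells had a part in the higher actin and matrix genes was not tested. In RNA from a bulk culture, fewer cells of a type and less RNA per cell cannot be told apart.

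The promoters of the alpha-actin genes are shown because these genes read alike on the arrays while their upstream sequences differ. They are the 120 bases before the annotated start in RefSeq on the GRCm38.p6 build, at chr2:114052876-114052995 for Actc1 and chr19:34255374-34255493 for Acta2, both on the minus strand, with an exact CArG box, the site bound by serum response factor, in capitals.
Actc1: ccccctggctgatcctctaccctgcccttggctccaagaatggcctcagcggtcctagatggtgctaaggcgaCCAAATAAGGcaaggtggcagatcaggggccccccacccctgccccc
Acta2: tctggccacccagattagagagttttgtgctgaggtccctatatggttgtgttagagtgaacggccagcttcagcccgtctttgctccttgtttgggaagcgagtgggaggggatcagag
The box begins 47 bases before the start of Actc1 and no exact match lies in the 250 bases before that of Acta2. Stretches 1 base off the pattern, such as ccctatatgg and ccttgtttgg in the printed Acta2 sequence, were not counted. The search therefore does not show that Acta2 lacks a site for serum response factor. The pattern is its own reverse complement, so a search of 1 strand covers both. Among the 11 called genes of the actin, fibroblast, mesoderm and basement membrane lists, 10 had a window of 250 bases. Of these 10 genes 2, Actc1 and Mesp1, held the box in at least 1 window. Over all 32851 windows the share was 1.47%, counted per window and not per gene. The genes were picked from these data, and no enrichment was tested. A match describes the letters only.

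**Figure D2:**
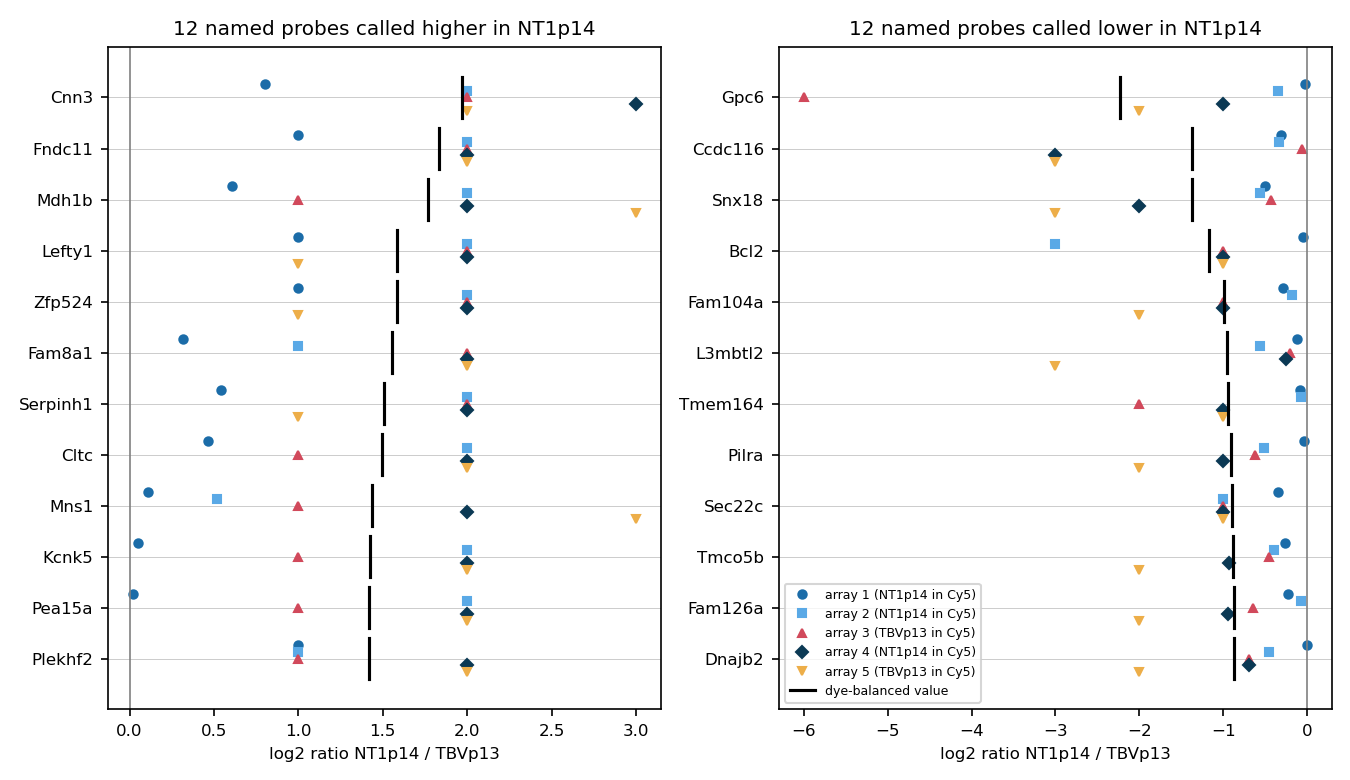
Points give the log2 ratio of NT1p14 over TBVp13 on each of the 5 arrays for the 12 named probes with the largest dye-balanced value (black bars) in each direction. Higher probes cluster at 1 to 3 on arrays 2 to 5, whereas several lower ones, such as Gpc6 at -6 on array 3, rest on 1 or 2 arrays.

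The other probes with the largest positive values came from varied processes. Fndc11 read 1 on array 1 and 2 on the other 4 (1.83 ± 0.45). Mdh1b, related to malate dehydrogenase, read 0.60, 2, 1, 2 and 3 (1.77 ± 0.94). Zfp524, a zinc finger protein, had the array readings 1, 2, 2, 2 and 1, which are those of Lefty1 (1.58 ± 0.55). Plekhf2, an endosomal protein, read 1, 1, 1, 2 and 2 (1.42 ± 0.55). All 5 values of Fndc11, Zfp524 and Plekhf2 were whole numbers, so that true ratios could differ from these by a good part of a unit. Cltc, the clathrin heavy chain of coated vesicles, was at 1.49 ± 0.72, Kcnk5, a potassium channel, at 1.43 ± 0.87, and Pea15a, a phosphoprotein that binds ERK, at 1.42 ± 0.89. For Kcnk5 and Pea15a array 1 was near 0 (0.05 and 0.02) and the remaining arrays at 1 or 2. Fam8a1, a cofactor of degradation from the endoplasmic reticulum, was at 1.55 ± 0.77, and its other probe gave 0.61. Mns1, a protein of cilia and sperm tails, read 0.11, 0.52, 1, 2 and 3 (1.44 ± 1.17) and stood at 0.94 without array 5.

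The lower side had few large and steady differences. Sec22c, a protein of vesicle transport, read -0.35 on array 1 and -1 on each of the others (-0.89 ± 0.29), and no single array moved it by over 1.5 times. Gpc6, a cell surface heparan sulfate proteoglycan, had the largest size at -2.23 ± 2.43, but its values of -0.02, -0.35, -6, -1 and -2 ranged widely. It was at -1.23 without array 3, and its other probe gave -0.39. Bcl2, the inhibitor of cell death, read -0.05, -3, -1, -1 and -1 (-1.18 ± 1.08), stood at -0.76 without array 2, and had -0.58 on a second probe, which was below 0 on all 5 arrays. Fam104a at -0.99 ± 0.73 and Tmem164 at -0.94 ± 0.80 lay on the same side.

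Snx18, a sorting nexin of endocytosis, was at -1.37 ± 1.15 and Ccdc116 at -1.38 ± 1.52, both with -2 or below on arrays 4 and 5 and between -0.57 and -0.07 on the others. Without array 5 they were at -0.73 and -0.64, and without array 3, where array 5 weighs more, Ccdc116 was at -2.11. Array 5 also decided L3mbtl2, a member of a variant Polycomb complex, which read -3 there and -0.56 to -0.12 elsewhere. L3mbtl2 was at -0.96 ± 1.23 over all arrays, at -0.26 without array 5 and at -1.66 without array 3, and its other probes gave -0.32 and 0.09, so it is uncertain. Pilra, an inhibitory receptor of myeloid cells, at -0.91, Tmco5b at -0.88, Fam126a at -0.87 and Dnajb2, a co-chaperone, at -0.87 went to -0.57, -0.49, -0.53 and -0.54 without array 5, below the limit of 1.5-fold. In this group the values of array 5 were at -2, the lowest of the 5.

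Probes whose 5 values all kept their decimals give the finest readings, but those named here all read below 1 in size on every array. Large ratios are thus left out by the choice of such probes. On the higher side Ifitm10 read 0.27, 0.82, 0.80, 0.84 and 0.67 (0.69 ± 0.24) and Arpc1a, a subunit of the Arp2/3 complex that branches actin filaments, read 0.16, 0.40, 0.95, 0.71 and 0.92 (0.68 ± 0.34). Tyrobp, an adaptor of myeloid receptors, read 0.26, 0.70, 0.71, 0.79 and 0.69 (0.64 ± 0.21). In each of these array 1 was lowest, and the remaining arrays of Ifitm10 and Tyrobp lay close together. Ppan, a factor of ribosome assembly, was at 0.65 ± 0.29, Spast, which severs microtubules, at 0.63 ± 0.27, Gdap1l1 at 0.63 ± 0.31, Yrdc, a tRNA-modifying protein, at 0.62 ± 0.28 and Zswim7 at 0.60 ± 0.38. The other probe of Gdap1l1 gave 0.02. Tyrobp was the only gene called among 8 measured immune and blood genes (12.5% against 3.06% of all genes), of which 3 lay above and 5 below 0.

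On the lower side with kept decimals, Lyzl4, a lysozyme-like protein, read -0.42, -0.57, -0.57, -0.84 and -0.84 (-0.66 ± 0.18). Plaat1, an acyltransferase, read -0.36, -0.73, -0.51, -0.88 and -0.70 (-0.63 ± 0.20), but another probe of it, with -1 on array 4 and 4 on array 5, gave 0.84. Pfkp, a phosphofructokinase of glycolysis, read -0.64, -0.57, -0.96, -0.02 and -0.77 (-0.64 ± 0.35), and its second probe, at -0.30, was below 0 too. Lyzl4 was the steadiest of these, with no array near 0. Csrp1, a LIM domain protein, was at -0.65 ± 0.39 with 0.14 on another probe, Fbf1, of the ciliary base, at -0.61 ± 0.29 with -0.24, and Nfx1 at -0.60 ± 0.23 with -0.41. Tmem260 was at -0.60 ± 0.26 and Cdk5rap3 at -0.59 ± 0.33. These sit close to the limit, and leaving out 1 array took most of the named probes with decimals below it. On the higher side this held for Ppan without array 4 (0.57), Spast without array 3 (0.54), Gdap1l1 without array 2, 3 or 4 (0.56 to 0.58), Yrdc without array 4 or 5 (0.53 and 0.56) and Zswim7 without array 2, 3 or 4 (0.51 to 0.53). On the lower side it held for Csrp1 without array 4 (-0.57), Pfkp without array 1 (-0.58), Plaat1 without array 4 or 5 (-0.57 and -0.58), Fbf1 without array 4 (-0.58), Tmem260 without array 4 or 5 (-0.53 and -0.50), Nfx1 without array 4 or 5 (-0.53 and -0.56) and Cdk5rap3 without array 4 or 5 (-0.47 and -0.51). Ifitm10, Arpc1a, Tyrobp and Lyzl4 stayed past it.

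Genes of growth and protein turnover had list medians above 0. Over the genes that kept a probe with no whole number the medians were close to 0. The other genes of each list are not covered by those medians, and the choice of such probes can leave out large ratios by itself. Ribosomal proteins of the cytosol build the ribosome, the proteasome degrades tagged proteins, and chaperones fold new ones. Of 36 measured cytosolic ribosomal protein genes 29 were above and 6 below 0, with a median of 0.42 against 0.01 for all genes. The list stood at a median of 0 on array 1, 0.25 on array 2, 0 on array 3 and 1 on arrays 4 and 5, so arrays 4 and 5 carried the shift. The list median was 0.26 without array 4, 0.67 without array 3, and 0.06 over probes with no whole number. Called higher were 2 (5.56% against 3.06%), Rpl13 at 0.16, 0.28, 0.07, 2 and 2 (0.93 ± 1.00) and Rpsa at 0.14, 0.71, 0.30, 2 and 1 (0.80 ± 0.74). Both were small on arrays 1 and 3. Without array 5 Rpl13 stood at 0.44 and without array 3 at 1.41, and Rpsa stood at 0.54 without array 4.

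Of 30 proteasome genes 21 were above and 9 below 0 (median 0.36), and the list was at 0.00, 0.27, 0.29, 0.61 and 0.53 by array. Psma1, a subunit of its core ring, read 2 on array 1 and 1 on each of the others (1.17 ± 0.45), and Psma2 was at 0.01 on array 1 and 0.68 to 1 on the rest (0.78 ± 0.43). These were the 2 called (6.67%), and over probes with no whole number the list median was 0.03. Among the named genes called higher, Psma1 was the only gene with its highest value on array 1. Of 21 chaperone genes 15 were above 0 (median 0.35) and Hsp90b1, a chaperone of the endoplasmic reticulum, was the gene called (4.76%), at 0.69 ± 0.41. The chaperone median was 0.20 without array 4 and 0.09 over probes with no whole number. Of 30 translation factors 23 were above 0 (median 0.20, or 0.06 over probes with no whole number) and 3 were called (10% against 3.06%). Eef2, which moves the ribosome along the message, was at 1.09 ± 0.90 as the mean of 2 probes, Eif2d at 0.69 ± 0.34 and Eif4b, a helper of the initiation helicase, at 0.67 ± 0.38. Eif2d was at 0.57 without array 5, and Eif4b at 0.56 without array 4 and 0.57 without array 5.

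Ribosome assembly and nucleolar genes had calls on both sides. Of 21 measured, 17 were above 0, with a median of 0.32, or 0.01 over probes with no whole number. Higher calls made up 9.52% of the list and lower calls 4.76%, against 3.06% and 0.720% of all genes. Rrp1 at 0.78 ± 0.80 and Ppan were called higher, and Rrp9, of the small subunit processome, was called lower. Rrp9 read -0.04, -0.41, -0.54, -1 and -1 (-0.63 ± 0.41), and stood at -0.50 without array 4 and -0.51 without array 5. Rrp1 stood at 0.45 without array 4. Splicing factors and hnRNPs, which bind and process pre-mRNA, gave 2 higher (4.65%) and 1 lower (2.33%) among 43. Their median was 0.17, with 0.10 without array 4 and -0.01 over probes with no whole number. Srsf6 was at 0.76 ± 0.40 and Srsf9 at 0.75 ± 0.77, the latter at 0.46 without array 4 and 0.58 without array 5. Hnrnpul1 was at -0.75 ± 0.80 and stood at -0.43 without array 5. Rrp9 and Hnrnpul1 were the 2 genes called lower among the 584 measured genes of all 30 lists (0.342%, against 0.720% of all genes), where 37 were called higher (6.34%, against 3.06%).

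Mitochondrial genes lay near 0 as lists. Of 58 oxidative phosphorylation genes 34 were above and 22 below 0 (median 0.09) and 3 were called higher (5.17%). This median was 0.0014 without array 5 and -0.08 over probes with no whole number. Sdhd, a membrane anchor of complex II, read 0.20 on array 1 and 1 on the other arrays (0.87 ± 0.36). Ndufc2 at 0.73 ± 0.42 and Ndufa3 at 0.67 ± 0.41 belong to complex I, and Ndufa3 was at 0.57 without array 4 and 0.54 without array 5. Of 41 mitochondrial ribosomal protein genes 29 were above 0, with a median of 0.11, or 0.07 without array 4, 0.18 without array 1 and 0.01 over probes with no whole number. Of these Mrps33 was called (2.44%) at 0.61 ± 0.43, although it stood at 0.53 without array 4 and 0.37 without array 5.

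Lysosomal genes gave 3 calls among 16 measured genes (18.8% against 3.06%), all higher. Cd63, a tetraspanin of late endosomes, read 0.67, 1, 1.5, 1.5 and 1.5 (1.28 ± 0.38) and no array was near 0. These are means over its measured probes, and of its 2 probes 1 had a value on all 5 arrays. Grn, the secreted progranulin, read 0.35, 0.49, 1, 1 and 1 (0.81 ± 0.32). Psap, the precursor of the saposins that aid lipid breakdown, read 0.17, 0.40, 0.23, 2 and 2 (0.98 ± 0.95) and was at 0.54 without array 5. The other members were divided, and the list median was 0.19, or -0.21 over probes with no whole number.

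Imprinted genes, which are expressed from 1 parental copy, had list medians above 0 on all 5 arrays (0.10, 0.15, 0.16, 0.13 and 0.22). Of 13 measured genes 8 were above and 5 below 0, with a median of 0.29, or 0.13 over probes with no whole number. The called gene (7.69%) was Igf2, a fetal growth factor, which read 0.15, 0.41, 1, 1 and 1 (0.76 ± 0.41). Of 24 DNA replication genes 17 were above 0 (median 0.28, or 0.03 over probes with no whole number), with arrays 1, 3 and 5 at a list median of 0 and array 4 at 0.74. Gins3, a part of the replicative helicase, was called (4.17%) at 0.62 ± 0.40 and stood at 0.51 without array 4 and 0.46 without array 5. Of 26 cell cycle and mitosis genes 0 were called in either direction. Their median of 0.14 became 0.29 without array 1, 0.03 without array 5 and -0.16 over probes with no whole number. Of 15 glycolysis and hypoxia genes 5 were above and 9 below 0 (median -0.08, or -0.01 without array 3), and Pdk1, which restrains pyruvate entry into mitochondria, was called higher (6.67%) at 0.80 ± 0.37.

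Of the mesoderm, trophectoderm, visceral endoderm and neural lists, mesoderm alone held calls. Of 7 mesoderm genes 2 were called (28.6% against 3.06% of all genes), Actc1 and Mesp1, an early mesoderm transcription factor, at 0.68 ± 0.41 (0.58 without array 4 and 0.55 without array 5), and the list median was 0.00. Of 7 trophectoderm and trophoblast genes, 11 primitive and visceral endoderm genes and 11 neural genes 0 were called in either direction, with medians of 0.13, 0.00 and 0.03. The trophectoderm median was 0.06 without array 4 or array 5, and the neural one lay between -0.09 and 0.01 with 1 array left out. Krt18, a keratin of simple epithelia, was above 0 on all 5 arrays at 0.02, 0.41, 0.31, 0.67 and 0.44 (0.37 ± 0.24), under 1.5-fold. Vim, an intermediate filament protein of fibroblasts and neural progenitors, was at 0 on array 1 and between 0.50 and 1.5 on the others (0.79 ± 0.57). Spink1, a secreted protease inhibitor, was below 0 on all 5 arrays (-0.55 ± 0.44) and Apoa1, a lipoprotein of visceral endoderm, was at -0.52 ± 0.38.

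Some genes past 1.5-fold were not called because at least 1 array read 0 or stood on the other side. Dnmt3l, a regulator of DNA methylation in germ cells and the embryo, read 0, 2, 1, 2 and 1 (1.17 ± 0.84). It was above 0 on every array but array 1, and all 5 of its values are whole numbers. Plk2, a kinase induced by p53, read 0, 1, 0, 1 and 3 (1.08 ± 1.22), and Gstp1, a glutathione transferase, read 0, 1, 0, 2 and 1 (0.75 ± 0.84). Cenpf, a kinetochore protein, was at 0.74 ± 0.87 and Sc5d, an enzyme of cholesterol synthesis, at -0.88 ± 1.07 with arrays 4 and 5 at -2. Across all probes 997 of the 1483 that reached 1.5-fold in size failed the rule on signs.

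**Figure D3:**
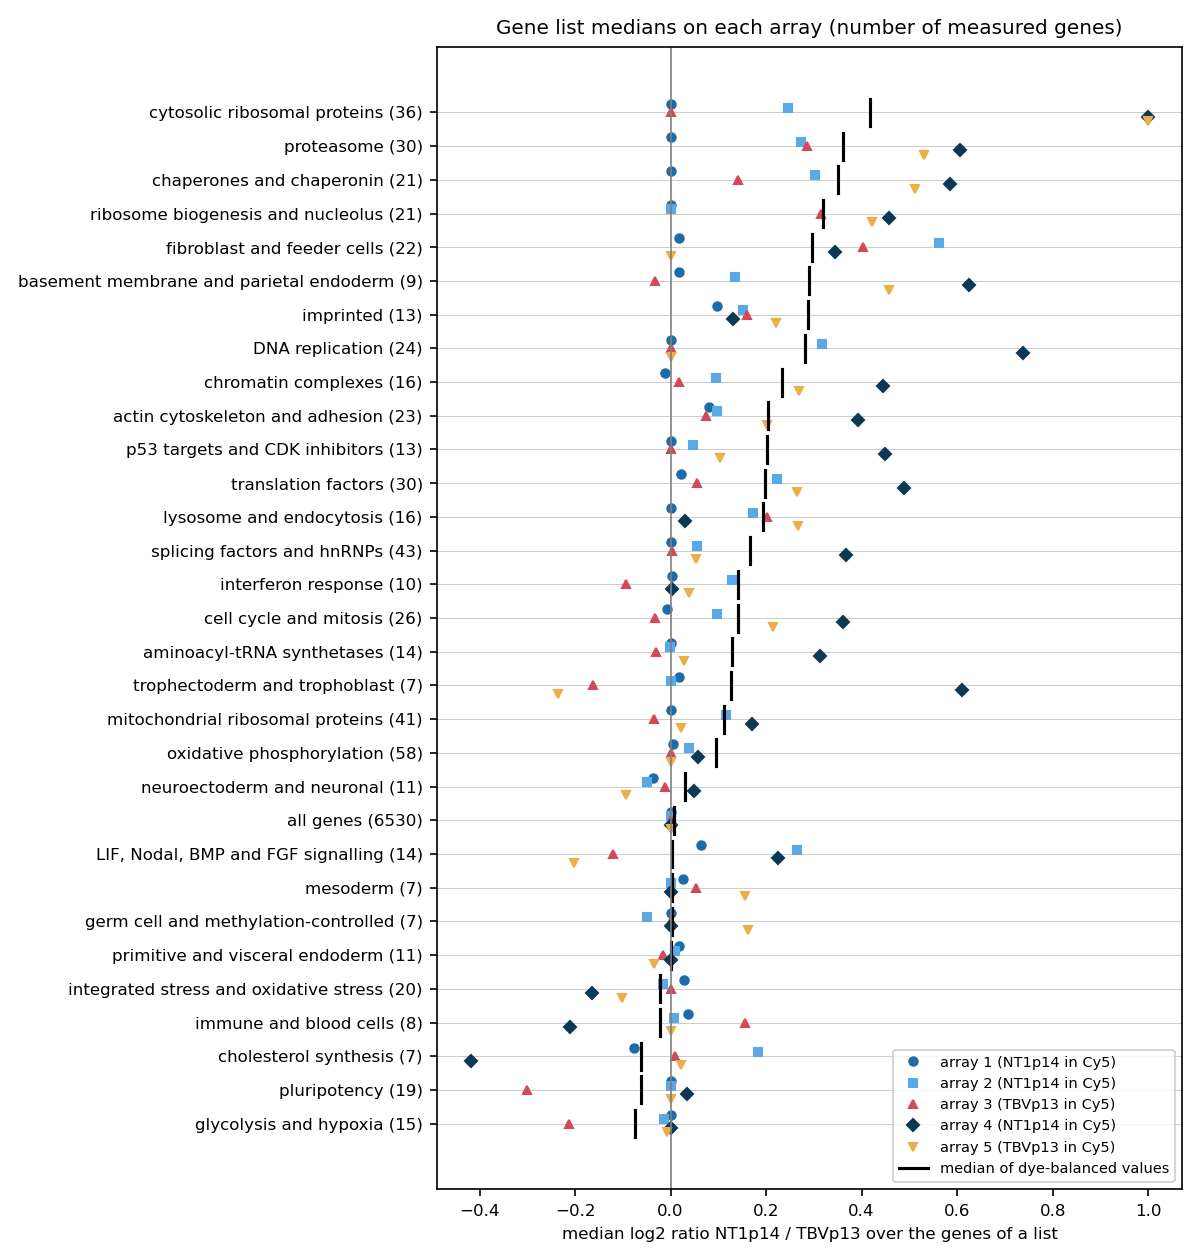
Points give the median log2 ratio of NT1p14 over TBVp13 over the measured genes of each list on each of the 5 arrays, black bars the median of the dye-balanced values, and the number of genes stands in brackets. Cytosolic ribosomal proteins lie highest at 0.42, carried by arrays 4 and 5 at 1, and array 1 lies near 0 for nearly all lists.

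The dye effect within these arrays was smaller than the difference between the sources. The dye component had an SD over probes of 0.28, against 0.41 for the dye-balanced ratio. By the rule used for calls, 63 probes (0.498%) differed by dye, 16 of them brighter in Cy5.

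The same genes stood otherwise in the source pairs with other names. NT1p12 with TBVp12, on 4 arrays, and NT1 1 with TBV2, on 2 arrays, share no source name with the pair described here. Of 362 probes called higher that were measured on all 4 arrays of NT1p12 with TBVp12, 303 (83.7%) were below 0 there, against 40.0% of all probes measured in both, and 92 (25.4%, against 10.4% of all) were below 0 on all 4 arrays. Of 114 probes called lower, 105 (92.1%) were above 0 there, against 59.2% of all. In NT1 1 with TBV2, 244 of 372 probes called higher (65.6%) were above 0, against 49.8% of all, and 87 of 113 called lower (77.0%) were below 0, against 50.2%. The first of these pairs thus mostly showed the opposite sign and the second more often the same one. The differences between pairs were not tested.

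Single genes followed this only in part. Col1a1 was at -0.62 in NT1p12 with TBVp12 and at -0.56 in NT1 1 with TBV2, Col3a1 at -0.45 and -0.62, Acta2 at -0.68 and -0.75, Itgb1 at -0.54 and -0.53 and Serpinh1 at -0.50 and -0.55. All 5 were thus below 0 in both, opposite to NT1p14 with TBVp13. Cnn3 was near 0 in both (-0.01 and 0.07). Lefty1 was at 0 and at 1, and Dnmt3l at 0.50 and 1.00. Zfp42 was at -1.75 and -0.01, Fgf4 at -0.60 and -0.28, Esrrb at -0.48 and -0.02, and Pou5f1 at -1 and -0.51, where Zfp42 and Esrrb in NT1 1 with TBV2 were close to 0. Of the other stem cell markers, Utf1 was at -0.24 and -0.35 and Dppa5a at -0.75 and 0.27. Sall4 was at -0.59 in NT1p12 with TBVp12, -0.32 in NT1 1 with TBV2 and -0.22 in NT1p12 with TBVp13. In NT1p14 with TBVp13 it was at 0.07, with arrays on both sides of 0. NT1p12 with TBVp13, which shares the TBVp13 source and has 2 arrays, read 1.00 for Cnn3, Col3a1 and Myh9, 0.50 for Acta2 and 0 for Lefty1 and Serpinh1.

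**Figure D4:**
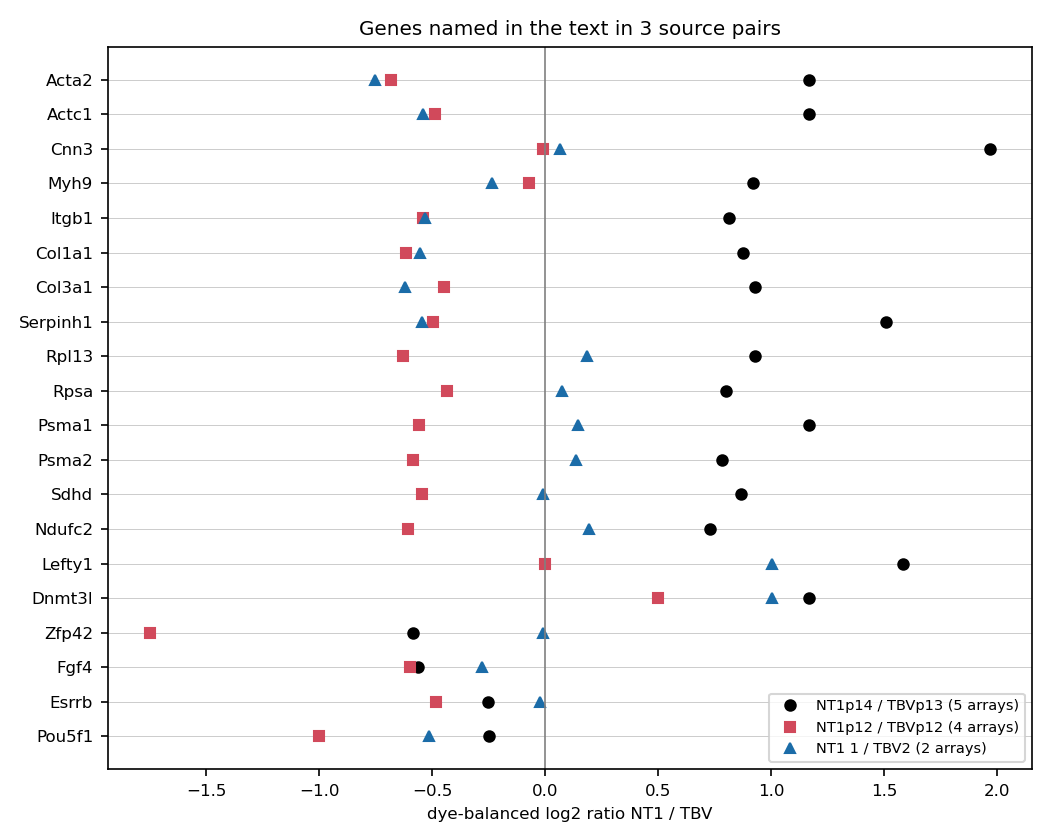
Points give the dye-balanced log2 ratio of NT1 over TBV for 20 genes in 3 source pairs that share no source name. Actin, collagen, ribosomal and proteasome genes lie above 0 in NT1p14 over TBVp13 and mostly below 0 in NT1p12 over TBVp12, while the plotted stem cell markers (Zfp42, Fgf4, Esrrb and Pou5f1, 4 of 6 measured) lie below 0, with Zfp42 and Esrrb close to 0 in NT1 1 over TBV2.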

How the data were processed

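The authors deposited 1 table of log ratios for the 13 arrays, with no channel intensities, so neither background nor depth is known and the small number of arrays limits the precision. The deposited values were taken as log2 ratios of Cy5 over Cy3; the log base, the numerator and the normalization are not given in the sources used here. The base was assumed from the size of the values, and the numerator from the titles and the order of the channels; neither is settled by the data.

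Each array was centred on its median, arrays with TBVp13 in Cy5 were multiplied by -1, and the means of both orientations were averaged. No test was run, because the arrays repeat 1 pair of sources. The call rule was run on simulated arrays with equal noise and no whole numbers, unlike the arrays here. That run does not test the calls made on these data. Probes were named from the platform annotation, matched to RefSeq symbols, and a gene is the mean of its probes with 1 symbol. On each array this mean takes the probes with a value there, so arrays can average different probes. Named probes are the 12 largest called in each direction, the 8 largest in each direction with no whole number, up to 4 called genes of each list in each direction, the largest gene of a list without calls, Sall4, Pou5f1 and the cell type markers. The members and gene lists were chosen with earlier results of these data known. Alternatives covered centring, scaling, averaging, dye orientation, each array left out, the fold, the sign rule, whole numbers and probes per gene. Python 3.11.15, pandas 2.3.3, numpy 2.4.6 and matplotlib 3.10.9 were used.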

Additional observations from a re-analysis of the deposited data

Results flagged for a closer look

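An array stood far from the other 4 for 21 of 116 results examined by Dixon's ratio, which chance gives in about 1 in 20 groups of continuous values. Several of these sets hold tied whole numbers, to which that rate does not apply. Array 1 was the distant one in 11 of them, array 4 in 5, array 3 in 3 and array 5 in 2. On array 1 Fndc11 read 1, Sec22c -0.35, Ifitm10 0.27, Ppan 0.13, Tyrobp 0.26, Col3a1 0.57, Anxa2 0.014, Sdhd 0.20, Pdk1 0.12 and Myh9 0.51, each closer to 0 than on the other arrays. Psma1 read 2 on array 1, above the other arrays. Actc1 and Acta2 both read 2 on array 4. Pou5f1 read -1 on array 3 and L3mbtl2 -3 on array 5. Among list medians, array 3 was apart for pluripotency (-0.30) and for glycolysis and hypoxia (-0.21). Array 4 was apart for aminoacyl-tRNA synthetases (0.31), splicing factors and hnRNPs (0.37) and p53 targets (0.45), and array 5 for germ cell genes (0.16).

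For 22 of 116 results every array of NT1p14 with TBVp13 lay on one side of 0 and every array of NT1p12 with TBVp12 on the other. The difference was not tested. Most of the named genes among these results were picked for having the same sign on every array of NT1p14 with TBVp13. Among all probes measured in both pairs, 12.9% were above 0 and 10.4% below 0 on all 4 arrays of NT1p12 with TBVp12. Higher in NT1p14 and lower in NT1p12 were Serpinh1 (1.51 against -0.50), Pea15a (1.42 against -0.63), Col3a1 (0.93 against -0.45), Col1a1 (0.88 against -0.62), Itgb1 (0.81 against -0.54), Pfn1 (0.71 against -0.61) and Yrdc (0.62 against -0.33). Gins3 (0.62 against -0.59), Rpl13 (0.93 against -0.63), Mrps33 (0.61 against -0.16), Rrp1 (0.78 against -0.48) and Srsf6 (0.76 against -0.48) did so as well. So did the respiratory genes Sdhd (0.87 against -0.55), Ndufc2 (0.73 against -0.61) and Ndufa3 (0.67 against -0.69). The reverse held for Snx18 (-1.37 against 0.79), Tmem164 (-0.94 against 0.24), Pilra (-0.91 against 0.42), Tmco5b (-0.88 against 0.51), Csrp1 (-0.65 against 0.50), Cdk5rap3 (-0.59 against 0.58) and Rrp9 (-0.63 against 0.43).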

How the results depend on the processing

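The counts of 372 probes called higher and 114 lower stayed within 1.5 times under a plain mean, scaling, a median, values on at least 4 arrays and the NT1p14-in-Cy5 arrays alone. With the NT1p14-in-Cy5 arrays alone (369 and 77) the rule asks for 3 signs in place of 5. With values on at least 4 arrays (446 and 138) it allows a missing value. Centring could not move the counts of 372 and 114, since every deposited median was 0. With only the TBVp13-in-Cy5 arrays they were 1653 and 1516, where the rule asks for 2 signs in place of 5. They were 84 and 5 at 2-fold, 1162 and 321 by size alone, 828 and 175 with values of 0 allowed, 20 and 17 among probes without whole numbers, and 200 and 47 counted as genes. Leaving out 1 array gave 278 to 814 higher and 60 to 497 lower, again with fewer signs asked for. Of 30 list medians, 14 changed sign when only probes without whole numbers were kept, and the cause was not tested. That setting drops genes with no such probe, so its medians are not of the same genes. It can also leave out large ratios by itself, since named probes reached 1 in size only as whole numbers. No paired analysis was possible because the arrays repeat 1 pair of sources and each ratio already holds both.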
